A study of Mus musculus with 10 samples.

Results

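Zbtb16, Sall4, Sall1, Nanos2, Nanos3, Lin28a, Lin28b, Taf4b, Pax7 and Pou5f1 are regulators linked to undifferentiated spermatogonia, the testicular cells from which sperm production is renewed. They were taken as a list of 10 symbols and found on the array by the gene name of each non-control probe, which gave 13 probes for 10 of the 31982 named genes. Of these genes, 8 had 1 probe, Lin28b had 2 and Sall4 had 3. Expression was measured on 10 one-color Agilent arrays in 4 groups. In culture, GS cells (germline stem cells, spermatogonia that propagate in vitro) spent 3 days deprived of GDNF and FGF2, and the next 24 hours with FGF5 at 100 ng/ml (n = 2) or without it (n = 2). These cells were labeled wildtype and C57BL/6, whereas the methods trace GS cells to intercrosses of C57BL/6 and ICR mice. From testes, GFRα1+ cells were isolated by FACS as the GFP+ fraction of Gfrα1-GFP mice aged 2.5 months, on a WT background (n = 3) or an Fgf5-/- background carrying the go-moja allele (n = 3), with C57BL/6 as the labeled strain. All sorted groups therefore carried the GFP reporter, and whether animals were pooled per sample, or cultures were separate, is not given, so the p-values measure the spread between these samples.

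Undifferentiated spermatogonia keep the stem cell pool through transcription factors and through proteins that act on RNA. ZBTB16 (PLZF), the zinc finger proteins SALL4 and SALL1, the paired box factor PAX7 and the POU factor POU5F1 (OCT4) act on DNA, and TAF4B is a gonad-enriched subunit of TFIID, the complex that positions RNA polymerase II at promoters. NANOS2 and NANOS3 bind mRNAs and bring in the CCR4-NOT deadenylase, and NANOS2 holds spermatogonia in the stem state. LIN28A and LIN28B bind RNA and block maturation of let-7 microRNAs. SALL4 binds PLZF and the NuRD repressor complex, and its pre-mRNA is spliced into longer and shorter forms.

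The 60-base probes set what each value stands for, and those of Sall4 and Lin28b gave unequal differences between cultured and sorted cells (below), so 3 of these probes are shown as deposited, 5′ to 3′, with mm9 coordinates from the scanner files on the minus strand. The first Sall4 probe was annotated to 3 RefSeq transcripts and the second to 1 of them, and the Lin28b probe is the dimmer of the pair for that gene.
Sall4, 3 transcripts, chr2:168578172-168578231: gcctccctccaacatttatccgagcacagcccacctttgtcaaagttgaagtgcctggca
Sall4, 1 transcript, chr2:168580437-168580496: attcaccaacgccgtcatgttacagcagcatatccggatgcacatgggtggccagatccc
Lin28b, dimmer probe, chr10:45140412-45140471: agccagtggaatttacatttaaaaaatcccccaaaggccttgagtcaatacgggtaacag

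Levels are given as log2 of the processed signal relative to the 75th percentile of the same array, so that 0 is that percentile and each unit is a doubling. The percentile itself lay between 575.2 and 649.8 signal units on the culture arrays and between 794.3 and 1091 on the sorted arrays, and 55.26% to 65.87% of non-control probes were well above background. The 4 germ cell markers Ddx4, Dazl, Mael and Tex101 were well above background on all 10 arrays. Gfra1, the gene behind the sorting reporter, was well above background on all 6 sorted arrays. The Fgf5 probe gave no check of genotype, because all 3 WT arrays were at background for it. Among the sorted arrays it was well above background on 1, at -3.42, and that was Fgf5-/- sample 1. The library labeled Fgf5-/- sample 1 also had the highest share of probes well above background, 65.87%, and the lowest summed signal of the germ cell markers, 130.7 times the 75th percentile beside 164.6 to 170.6 on the other sorted arrays. Genotype differences are therefore also given without it for Nanos2, Nanos3, Lin28a and the brighter Lin28b probe, and calls for all tested regulators. The part of these properties in the results was not tested. All culture arrays shared a slide and scan and all sorted arrays shared another, so slide and material cannot be told apart, and the genotypes lay in separate rows of their slide, so position and genotype cannot be told apart either.

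Of the 10 regulators, 9 were well above background on all 10 arrays with their brightest probe. Taf4b was the exception. Its probe was well above background on 1 array, GS cells with FGF5 sample 1 at -4.46, and not on the other 9, where values ran from -6.85 to -5.21. No difference in Taf4b was therefore tested.

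**Figure D1:**
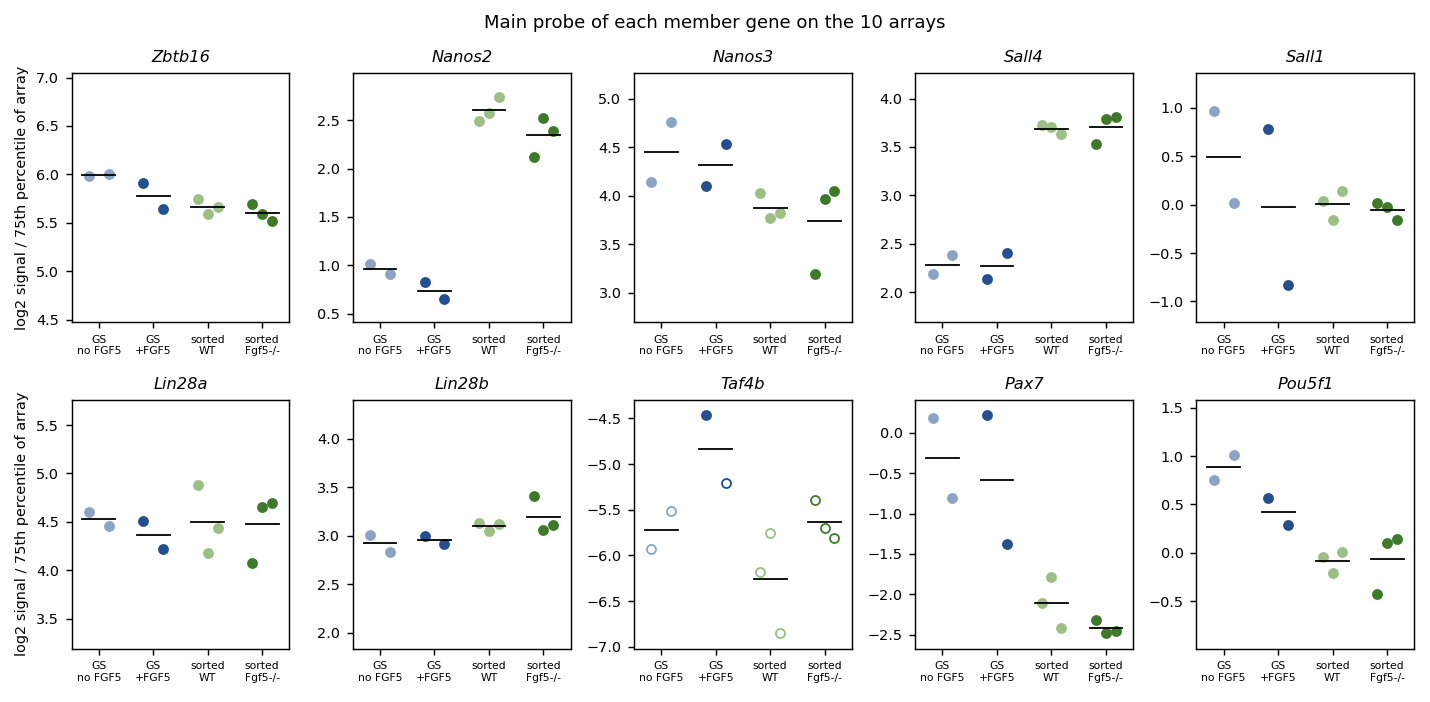
Log2 signal relative to the 75th percentile of each array (vertical axis) for the brightest probe of each of the 10 genes, by group (horizontal axis), with 1 point per array and a bar at the group mean. Filled points are well above background and open points are not. Nanos2 and Sall4 lie lower on all 4 culture arrays than on any of the 6 sorted arrays, Pax7, Pou5f1 and Nanos3 lie higher, and Taf4b is open on 9 of 10 arrays.

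The first comparison asked whether 24 hours of FGF5 altered these regulators in growth factor-deprived GS cells. None of the 9 tested regulators passed the threshold of an adjusted p of 0.05 (limma, Benjamini-Hochberg over 34612 probes), and 0 of 9 reached an unadjusted p under 0.05. Over all tested probes 0% passed after adjustment and 2.55% had an unadjusted p under 0.05, so the array at large gave no calls at n = 2. A missing call therefore does not show that a regulator was unchanged. The log2 differences, with FGF5 minus without, were negative for 8 genes and positive for 1, with a median of -0.21 beside -0.03 for all tested probes. Quartiles of all tested probes were -0.14 and 0.07, so the array leaned negative too. The genes share arrays and scaling, so this count of signs is no result about them.

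Pou5f1 had the difference with the smallest p among these genes. It was at 0.56 and 0.28 with FGF5 and at 0.75 and 1.02 without it. Both FGF5 arrays were below both untreated arrays, and the difference was -0.46 ± 0.20 (SE), with a 95% interval from -0.98 to 0.07 and an adjusted p of 1 by limma. POU5F1 is best known as a pluripotency factor of the early embryo and of germ cells.

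Nanos2 was at 0.82 and 0.66 with FGF5 and at 1.01 and 0.91 without. These groups did not overlap either, and the difference was -0.22 ± 0.17 (SE; 95% interval -0.66 to 0.22). Zbtb16 was at 5.91 and 5.65 with FGF5 and at 5.98 and 6.00 without, a difference of -0.21 ± 0.18 (SE; interval -0.68 to 0.25). The 3 genes whose arrays did not overlap, all lower with FGF5, stand beside 14.5% of all tested probes that separated in the same direction and 8.18% that separated in the other.

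The remaining genes overlapped between conditions. Nanos3 was at 4.10 and 4.53 with FGF5 and at 4.15 and 4.76 without. Lin28a was at 4.51 and 4.22 against 4.60 and 4.45, and the brighter Lin28b probe at 2.99 and 2.92 against 3.01 and 2.83. Differences of these LIN28 paralogs were -0.16 (interval -0.65 to 0.33) and 0.03 (interval -0.40 to 0.47), so the data left room for changes of up to about these bounds.

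The 3 Sall4 probes differed by -0.02, -0.16 and 0.001 between conditions, each within its interval around 0. The brightest was at 2.14 and 2.40 with FGF5 and at 2.19 and 2.38 without. Neither this probe nor the probe annotated to 1 transcript separated the conditions.

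Pax7 and Sall1 varied more between samples of a condition than between conditions. Pax7, which marks a rare subset of single spermatogonia and is best known from muscle satellite cells, was at 0.22 and -1.38 with FGF5 and at 0.19 and -0.81 without. Sall1 was at 0.78 and -0.83 with FGF5 and at 0.97 and 0.02 without. In both conditions the sample numbered 1 was the higher for both genes, and their intervals of the FGF5 difference were wide, from -1.95 to 1.41 for Pax7 and from -2.19 to 1.150 for Sall1. Averaged over conditions, the samples numbered 1 and 2 were 1.30 apart for Pax7 and 1.28 apart for Sall1, a gap that 1.72% and 1.81% of tested probes reached. The summed signal of 10 markers of peritubular cells and fibroblasts, in multiples of the 75th percentile, was 14.8 and 6.55 with FGF5 and 16.3 and 7.58 without, in the same order, with 8 of the 10 markers well above background on each culture array and with 1 of the 10, Thy1, also expressed by undifferentiated spermatogonia. That of 5 endothelial markers was 20.8 and 11.5 with FGF5 and 19.1 and 13.6 without, with 3 to 4 of them well above background. Sums for other somatic cells lay closer together within a condition. They ran from 4.11 to 4.23 with FGF5 and from 3.40 to 3.68 without for macrophage markers. Sertoli cell markers gave 2.73 to 2.75 and 2.20 to 2.485, and Leydig cell markers 4.99 to 6.65 and 5.18 to 6.56. Col1a1, at mean log2 levels of 2.53 with FGF5 and 2.87 without, made most of the fibroblast sum. Most of the endothelial sum was Kdr (3.11 and 2.97) and Vwf (2.55 and 2.92). The levels of the sums therefore rest mainly on these genes. The SE of the FGF5 difference was 0.85 for Col1a1, 0.73 for Vwf and 0.17 for Kdr. Kdr thus varied less between samples of a condition than Col1a1 and Vwf did. The part of these cells in the Pax7 and Sall1 values was not tested.

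The second comparison asked whether the regulators differed in GFRα1+ cells that had lived without FGF5. None of the 9 tested genes passed (limma, 30285 probes), none reached an unadjusted p under 0.05, and none separated the genotypes. Over all tested probes 0% passed, 6.79% had an unadjusted p under 0.05 and 16.2% separated. The differences, Fgf5-/- minus WT, ran from -0.31 to 0.09 with a median of -0.06, beside -0.03 for all tested probes. In bulk samples, fewer cells of a type and less RNA per cell cannot be told apart.

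Nanos2 was at 2.496, 2.57 and 2.74 in WT and at 2.12, 2.53 and 2.39 in Fgf5-/- cells. The lowest value was Fgf5-/- sample 1, and the ranges overlapped, with a difference of -0.26 ± 0.14 (SE; 95% interval -0.60 to 0.08; adjusted p = 0.749 by limma). Without that sample the difference was -0.15.

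Pax7 was at -2.11, -1.78 and -2.42 in WT and at -2.32, -2.48 and -2.46 in Fgf5-/- cells. All 6 were well above background although low, and the difference was -0.31 (interval -0.74 to 0.11; adjusted p = 0.753 by limma). Zbtb16 was at 5.75, 5.59 and 5.67 against 5.69, 5.59 and 5.52, a difference of -0.07 (interval -0.32 to 0.19).

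The brightest Sall4 probe was at 3.73, 3.70 and 3.64 in WT and at 3.53, 3.78 and 3.81 in Fgf5-/- cells. Its interval, from -0.26 to 0.30, held differences of either sign. Sall1 was at 0.04, -0.16 and 0.15 against 0.02, -0.02 and -0.16, and Pou5f1 at -0.05, -0.21 and 0.01 against -0.42, 0.10 and 0.14.

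Fgf5-/- sample 1 lay apart from the other Fgf5-/- samples for Nanos3, Lin28a and Lin28b, as it did for Pou5f1. Nanos3 was at 4.03, 3.78 and 3.82 in WT and at 3.20, 3.96 and 4.05 in Fgf5-/- cells, so that its difference of -0.14 became 0.13 without sample 1. Lin28a was at 4.88, 4.18 and 4.44 against 4.08, 4.65 and 4.70, and its difference of -0.03 became 0.17. Its WT samples spread as widely (SD 0.35 in each group), and without WT sample 1 the difference was 0.16. The brighter Lin28b probe was at 3.13, 3.05 and 3.12 against 3.41, 3.06 and 3.11. Its difference of 0.09 became -0.02 without Fgf5-/- sample 1. None of the 9 genes passed without that sample, while the number of probes passing over the whole array went from 0 to 6.

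**Figure D2:**
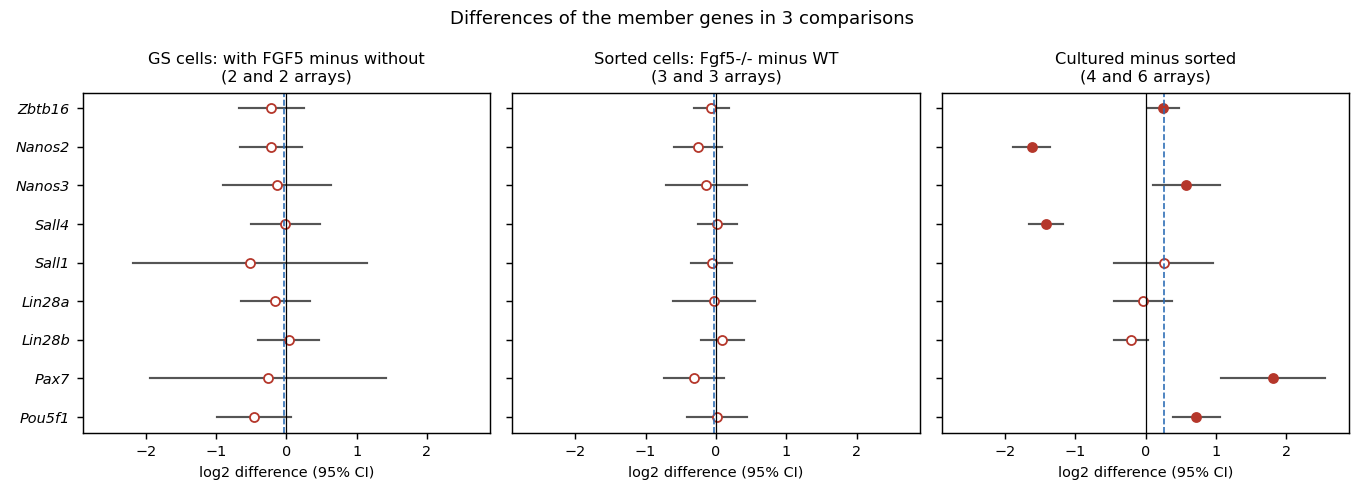
Log2 differences (horizontal axis) with 95% intervals for the brightest probe of the 9 tested genes in the 3 comparisons, filled where the adjusted p was under 0.05. The dashed line is the median of all tested probes. No gene is filled in the FGF5 or genotype panels and 6 are filled in the panel of cultured minus sorted cells.

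The third comparison set the 4 cultured samples against the 6 sorted samples, with the groups weighted equally. Of the 9 tested regulators, 6 passed, 4 higher and 2 lower in culture, and the same counts were found without Fgf5-/- sample 1. Nanos2 and Sall4 were lower in GS cells and Pax7, Pou5f1, Nanos3 and Zbtb16 were higher. On the whole array 67.7% of 35826 tested probes passed, 41.9% higher and 25.7% lower, so the share of regulators called is near the background and is no result about them. The arrays of 3 regulators separated higher in culture and those of 3 lower, beside 34.7% and 21% of all tested probes. The median of all tested probes was 0.26, and that of probes well above background on every array was 0.08. Of all calls, 62.0% were higher in culture, a share that was 38.4% when arrays were centered on their median in place of the 75th percentile. Slide and material cannot be told apart in any value of this comparison. All 4 cultured samples had also spent 3 days without GDNF and FGF2, which cannot be told apart from culture itself. The same holds for the mixed strain origin that the methods give for GS cells.

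Nanos2 was measured by a probe at chr7:19574205-19574264 of mm9. It was at 0.66, 0.82, 0.91 and 1.01 in GS cells, where the lower pair had FGF5. In sorted cells the lowest, median and highest values were 2.12, 2.51 and 2.74. No cultured value reached the sorted range, and Nanos2 was 3.08-fold lower in culture, a log2 difference of -1.62 ± 0.11 (SE; adjusted p = 1.09e-05 by limma). The group means fell in the order WT (2.60 ± 0.13, SD, n = 3), Fgf5-/- (2.34 ± 0.21, n = 3), GS without FGF5 (0.96 ± 0.07, n = 2) and GS with FGF5 (0.74 ± 0.12, n = 2), and the neighbors within a material did not pass their test. Relative to the median of all probes the difference was -1.88, and it lay between -1.88 and -1.65 over the 7 scalings tried.

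The brightest Sall4 probe, at chr2:168574333-168574392 of mm9, gave 2.14 to 2.40 in GS cells and 3.53, 3.71 and 3.81 (lowest, median and highest) in sorted cells. It was 2.68-fold lower in culture, with a log2 difference of -1.42 ± 0.11 (SE; adjusted p = 1.5e-05 by limma). The second probe, annotated to the same 3 transcripts, was at -0.36 to -0.03 in culture and 0.40 to 0.69 in sorted cells, a difference of -0.81 (adjusted p = 0.000176 by limma). The probe annotated to 1 transcript was at -2.87 to -2.37 in culture and -0.60 to -0.31 in sorted cells, 4.31-fold lower in culture with a log2 difference of -2.11 (adjusted p = 5.83e-06 by limma). All 3 probes thus gave the same direction with unequal sizes.

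Whether these sizes differed was tested on the difference between probes within each array, which a constant shift of an array does not move, over 4 pairs of probes with an exact two-sided permutation test of 4 against 6 arrays. The 1-transcript probe minus the second probe was -2.39 ± 0.15 (SD, n = 4) in culture and -1.10 ± 0.10 (n = 6) in sorted cells, 1.29 log2 units or 2.45-fold apart (exact p = 0.00952, adjusted p = 0.0127). That p is the smallest this design can give. The 1-transcript probe was also lower than the brightest probe by a further 1.61-fold, but the brightest and the second probe, which share their annotation, differed from each other by 1.52-fold, each with the same exact p. The gap of 1.61-fold was thus near that of the pair with equal annotation. On the log2 scale the gap of 2.45-fold is the sum of the other Sall4 gaps. Its larger size follows from them and is no separate result. Scalings that treat bright and dim probes unequally moved these sizes, in alternatives chosen after seeing the data. The gap of 2.45-fold became 2.91-fold with quantile normalization and 1.81-fold with normexp background correction, both at the same exact p. That of 1.61-fold became 2.15-fold and 1.09-fold, and with normexp it did not pass (exact permutation p = 0.552). That of 1.52-fold became 1.35-fold and 1.66-fold and passed under both.

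Pax7, with a probe at chr4:139294364-139294423 of mm9, was at 0.22, -1.38, 0.19 and -0.81 in GS cells and at -2.48, -2.37 and -1.78 (lowest, median and highest) in sorted cells. Every culture array was above every sorted array, and Pax7 was 3.52-fold higher in culture, with a log2 difference of 1.81 ± 0.32 (SE; adjusted p = 0.00125 by limma). The order of group means was GS without FGF5 (-0.31 ± 0.71, SD), GS with FGF5 (-0.58 ± 1.13), WT (-2.10 ± 0.32) and Fgf5-/- (-2.42 ± 0.09), and the neighbors within a material did not pass their test. The summed fibroblast markers ran from 6.55 to 16.3 in culture and from 5.06 to 6.50 in sorted cells, where 6 to 9 of 10 were well above background. The summed endothelial markers ran from 11.5 to 20.8 and from 2.74 to 4.97, with all 5 well above background on each sorted array. The genes of these lists did not move together. Of the 5 endothelial markers, Vwf (4.13), Kdr (1.43) and Pecam1 (1.05) were higher in culture, whereas Cdh5 (-2.35) and Tek, which was at background on all 4 culture arrays, were lower. Of 9 tested fibroblast markers 5 were higher, among them Col1a2 (3.66), and 2 were lower, Pdgfra (-0.46) and Pdgfrb, which was at background on all 4 culture arrays. Col1a1 did not pass (0.89, adjusted p = 0.09 by limma). Their part in the Pax7 difference was not tested.

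Pou5f1 was at 0.56 and 0.28 with FGF5, 0.75 and 1.02 without it, and between -0.42 and 0.14 in sorted cells, with a sorted median of -0.02. It was 1.65-fold higher in culture (log2 difference 0.72 ± 0.14, SE; adjusted p = 0.00229 by limma), and with array medians the difference was 0.26 and did not pass (adjusted p = 0.266). The group means fell in the order GS without FGF5 (0.88 ± 0.19, SD), GS with FGF5 (0.42 ± 0.20), Fgf5-/- (-0.06 ± 0.31) and WT (-0.08 ± 0.11).

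Nanos3 opposed Nanos2. It was at 4.10 to 4.76 in GS cells and at 3.20, 3.89 and 4.05 (lowest, median and highest) in sorted cells, 1.50-fold higher in culture (log2 difference 0.58 ± 0.21, SE; adjusted p = 0.0359 by limma). The call was lost without any 1 of 4 arrays, GS with FGF5 sample 2 (0.47), GS without FGF5 sample 2 (0.43), WT sample 2 (0.56) or WT sample 3 (0.57). It was also lost with array medians, where the difference was 0.12 (adjusted p = 0.695 by limma), in the authors' normalized table (0.53, adjusted p = 0.0535) and with no filter on dim probes (adjusted p = 0.0615).

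Zbtb16 was at 5.65 to 6.00 in GS cells and at 5.52 to 5.75 in sorted cells. These ranges overlapped. Its log2 difference was 0.25 ± 0.10 (SE; adjusted p = 0.0461 by limma). It was -0.01 relative to the median of all tested probes, while probes well above background on every array had a lower median, 0.08. The difference became -0.21 with array medians and did not pass in 8 of 10 fits that left out 1 array. Values across all 10 arrays thus spanned 5.52 to 6.00, the narrowest range among the regulators' brightest probes.

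Sall1 and the LIN28 genes did not pass. Sall1 differed by 0.26 ± 0.31 (SE; adjusted p = 0.483 by limma), with -0.83 to 0.97 in culture and -0.16 to 0.15 in sorted cells, and without GS with FGF5 sample 2, its lowest array, the difference was 0.66 and passed (adjusted p = 0.0324). Lin28a was at 4.22 to 4.60 in culture and 4.08 to 4.88 in sorted cells, a difference of -0.04 (95% interval -0.46 to 0.38; adjusted p = 0.857 by limma). The brighter Lin28b probe was at 2.83 to 3.01 in culture and 3.05 to 3.41 in sorted cells. These ranges did not overlap, yet the difference of -0.21 did not pass (adjusted p = 0.105), where 55.7% of all tested probes separated. The dimmer Lin28b probe, printed above, was at -1.53 to -1.03 and -1.63 to -1.43 with a difference of 0.19 (adjusted p = 0.19), and the gap between the 2 probes was 1.32-fold larger in sorted cells (exact permutation p = 0.019, adjusted p = 0.019). This gap depended on the scaling. It was 1.58-fold with normexp and 1.05-fold with quantile normalization, where it did not pass (exact permutation p = 0.724).

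The calls for the separate Lin28b probes depended on the scaling as well. The brighter probe passed as lower in culture with normexp (-0.40, adjusted p = 0.00385 by limma) and with array medians (-0.67, adjusted p = 0.00151). The dimmer probe passed as higher with normexp (0.27, adjusted p = 0.0389 by limma) and with percentiles over probes well above background (0.33, adjusted p = 0.0434).

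**Figure D3:**
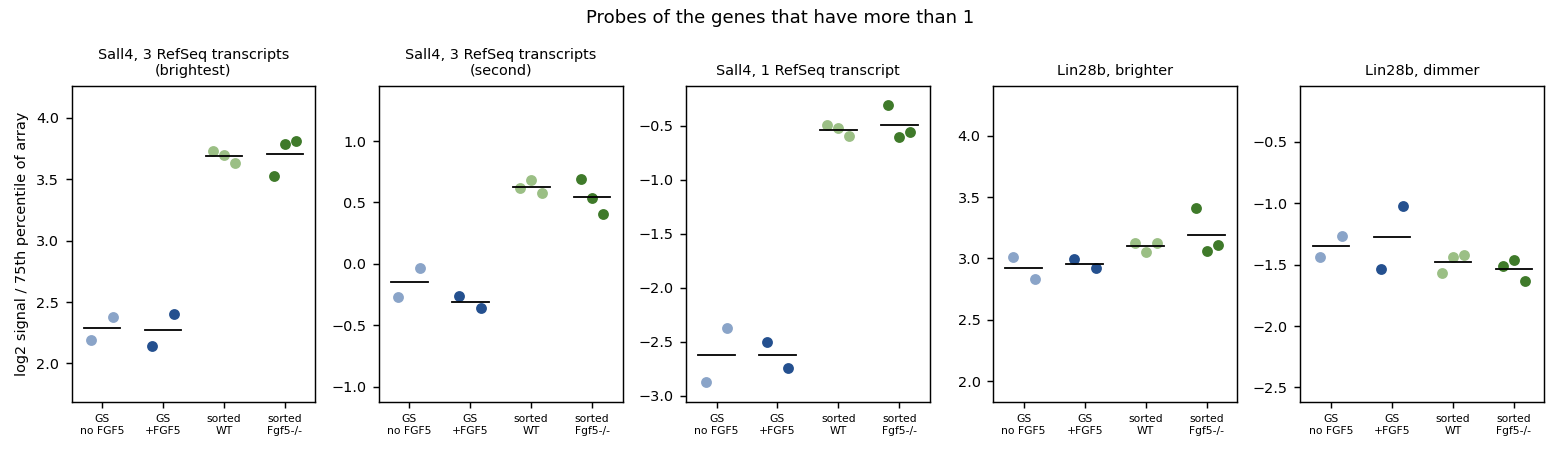
Log2 signal relative to the 75th percentile of each array (vertical axis) for the 3 Sall4 probes and the 2 Lin28b probes, by group, with 1 point per array and a bar at the group mean; titles give the number of RefSeq transcripts annotated to each Sall4 probe. All 3 Sall4 probes lie lower in both GS groups, and the Lin28b probes show small gaps of opposite sign.

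**Figure D4:**
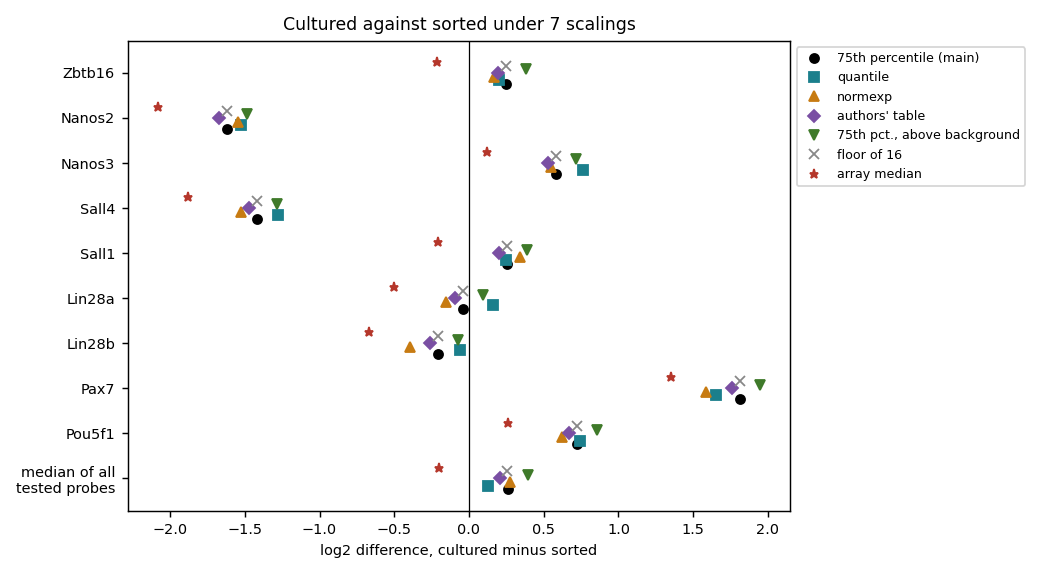
Log2 difference of cultured minus sorted cells (horizontal axis) for 9 regulators and for the median of all tested probes under 7 ways of scaling the arrays, each a symbol. Nanos2 and Sall4 stay below 0 and Pax7, Pou5f1 and Nanos3 above 0 under each, while Zbtb16, Sall1 and Lin28a change sign.

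The partners of these regulators were described from fixed lists of symbols, with the same tests. In the FGF5 and genotype comparisons 0 genes of any of the 7 lists passed (limma), while 9 of 119 tested list genes (7.56%) in the former and 10 of 122 (8.20%) in the latter had an unadjusted p under 0.05, beside 2.55% and 6.79% of all tested probes. The study had picked 7 of these 9 genes on the culture arrays, so their count is no independent evidence. Between cultured and sorted cells many genes of each list passed, beside 41.9% of all tested probes higher and 25.7% lower. Each list gene given with a difference below passed. Most list genes were well above background on all 10 arrays. Probes well above background on every array had a median log2 difference of 0.08, beside 0.26 for all tested probes.

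Among 20 partners of NANOS proteins and members of the CCR4-NOT deadenylase, 4 were higher and 12 lower in culture, with a median log2 difference of -0.39 beside 0.26 for all probes. The deadenylase subunits Cnot7 and Cnot6l differed by 1.44 and -1.17, and the helicase Ddx6 by -1.03. Of 17 genes of the LIN28 and let-7 axis, 1 was higher and 9 lower, with a median of -0.45. The chromatin protein gene Hmga1 differed by -1.36, the let-7 target Trim71 by -1.29 and the microRNA-processing enzyme Drosha by -1.28.

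Of 16 members of the SALL family and the NuRD complex, 4 were higher and 7 lower, with a median of -0.25. The Sall4 paralogs Sall2 (1.75) and Sall3 (1.29) were higher in culture, opposite to Sall4 and with the same sign under the 6 scalings tried for them, and the NuRD subunit Mta3 was lower (-0.95). Of 17 TFIID subunits and relatives, 2 were higher and 5 lower, with a median of 0.01 and with Taf3 at -0.73, Taf11 at 0.66 and Taf9 at -0.65. Taf4b itself was at background.

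Of 17 pluripotency factors other than Pou5f1, 7 were higher and 6 lower, with a median of 0.18. Dppa3, a maternal factor that protects the zygotic genome from demethylation, was higher in culture by 5.30, and Tbx3 differed by -3.55. Prdm14, a primordial germ cell regulator, was at background on all 4 culture arrays and was at least 2.54-fold lower there.

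Of 26 further genes of undifferentiated spermatogonia, 4 were higher and 13 lower, with a median of -0.46. Of these, 11 had been picked by the study on the culture arrays, so their direction there is no independent evidence. The transcription factor gene Foxc2, well above background on all 10 arrays, differed by -4.66. Eomes (-4.94) and T (-4.46) were lower too, but these fitted differences include culture values at background. Eomes was well above background on 3 of 4 culture arrays, and T on both arrays with FGF5, at a mean of -2.53, and on neither array without it. Gfra1, the GDNF receptor whose reporter defined the sorted gate, differed by -3.01, and Neurog3, a factor of progenitors primed to differentiate, by 1.29. Of 10 genes of differentiating spermatogonia, 2 were higher and 4 lower, with a median of -0.14. Stra8, induced by retinoic acid, differed by -3.14, the receptor Kit by -2.77 and the cyclin Ccnd2 by -2.65. The study itself counts Ccnd2 among cell cycle genes that FGF5 raised in culture.

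The summed signals of markers of other cell types also differed between the materials. In multiples of the 75th percentile, 5 spermatid markers, of which 3 to 4 were well above background per array, summed to 0.837 to 1.03 in culture and 4.52 to 15.98 in sorted cells. The 8 Sertoli cell markers, with 5 to 6 above background, summed to 2.20 to 2.75 and 4.34 to 5.62. Of 6 Sertoli cell markers tested, 4 were lower in culture, among them Rhox5 (-2.33), and Sox9 was higher (2.03, well above background on 3 of 6 sorted arrays), while Amh and Fshr were at background on all 10 arrays. The 5 Leydig cell markers, with 2 to 3 above background, summed to 4.99 to 6.65 and 0.424 to 1.96, and 6 macrophage markers, with 2 to 4 above background, to 3.400 to 4.23 and 0.798 to 1.82. Most of the Leydig sum was Cyp17a1, at mean log2 levels of 2.49 in culture and 0.195 in sorted cells, beside Star at -2.97 and -3.67. Csf1r (1.39 and -0.32) and Cd68 (0.097 and -0.955) made most of the macrophage sum. Cyp11a1, Lhcgr, Cd163 and Lyz2 were at background on all 10 arrays. Their part in the differences between cultured and sorted cells was not tested.

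**Figure D5:**
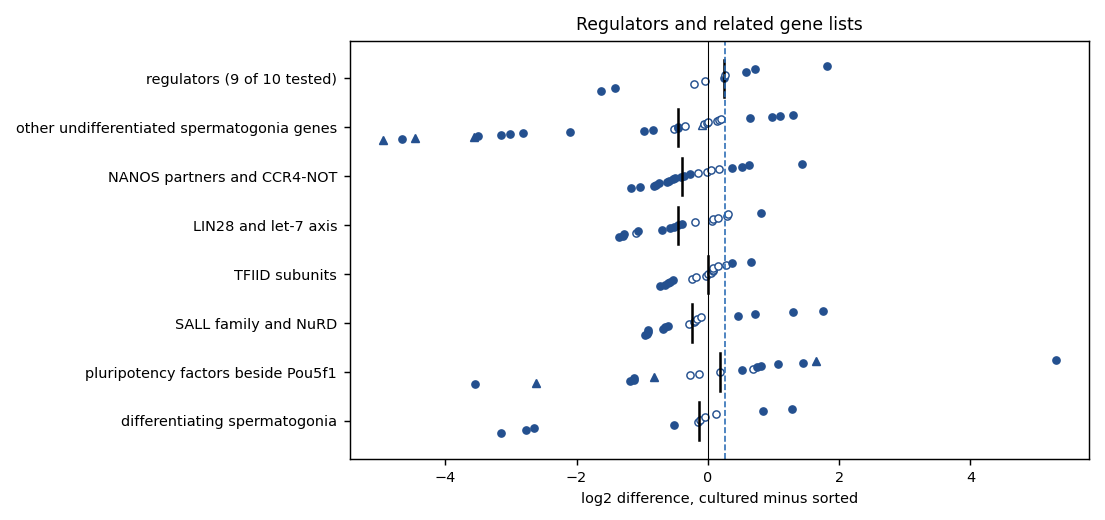
Log2 difference of cultured minus sorted cells (horizontal axis) for the 9 tested regulators and for 7 lists of related genes, with 1 point per gene, filled where the adjusted p was under 0.05. Triangles are genes not well above background on all 10 arrays, whose fitted values are no bounds, bars are list medians and the dashed line is the median of all tested probes, 0.26. The list medians run from -0.46 to 0.18, and each list holds genes on both sides of 0.

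Across the 10 arrays the genes whose profiles were most like each regulator were named by Pearson's r, as a description in which the contrast of materials weighs most. Nanos2 was closest to Smn1 (r = 0.997) and Cdk5rap3 (0.997), Sall4 to Tti2 (0.999) and Gpn2 (0.999), Pax7 to Gpatch8 (0.992) and Chst2 (0.986), and Pou5f1 to Asb9 (0.984). Nanos3 was closest to Zc3h14 (0.991) and Zbtb16 to Rab8b (0.960). Sall1 was closest to Crtc3 (0.965), Lin28a to Atp8a2 (0.937) and Lin28b to Trim11 (0.975). These r values share arrays, slides and scaling.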

How the data were processed

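RNA was extracted with the RNeasy Micro Kit, and Cy3-labeled cRNA was made from 25 ng total RNA. The authors deposited scanner output with background-subtracted, processed spot intensity (Feature Extraction 10.7.1.1 in the file headers, 10.7.3.1 in the submitters' notes), and a table of log2 values which the authors had floored and shifted to the 75th percentile.

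Here the processed intensity was floored at 1, log2-transformed and shifted by the 75th percentile of non-control spots. Spots flagged as non-uniform or population outliers were omitted and spots of a probe averaged. A probe entered a test when all arrays of 1 or more of its groups had it well above background (limma 3.58.1, R 4.3.3, two-sided, Benjamini-Hochberg over all tested probes, threshold 0.05). The brightest probe represents a gene. Scripts were tested on simulated data. The number of arrays limits the precision.

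Members and lists were chosen with earlier results of these data known. List genes were named if they passed and were among the 3 largest changes of their list, with Kit, Gfra1 and Neurog3 always named. Alternatives changed the scaling, background correction, floor, filters, variance trend, replicate block and the arrays included.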

Additional observations from a re-analysis of the deposited data

How the results depend on the processing

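Nanos2 and all 3 Sall4 probes kept direction and call between cultured and sorted cells in every alternative run. Of 266 refits of member probes in that comparison, 223 kept direction and side of the threshold, 25 lost and 6 gained the call and 12 changed sign. No member passed in any refit of the FGF5 or genotype comparison. The causes of the following were not tested. Against GS cells with FGF5, sorted WT cells gave 3 passing regulators in place of 6 (Nanos3 0.45, Pax7 1.53, Zbtb16 0.11, Sall1 -0.034), and against GS cells without FGF5 Lin28a was 0.027. With 1 array left out, 4 to 7 regulators passed, and 0 to 6 probes of the whole array passed between genotypes (0 with all arrays, 2055 at an unadjusted p under 0.05).

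Cultured minus sorted, array medians (chosen after seeing the data) gave Zbtb16 -0.21, Nanos3 0.12, Sall1 -0.21, Lin28a -0.50 and Lin28b -0.67 (brighter probe) and -0.27. Quantile normalization gave Lin28a 0.16, and percentiles over probes above background gave 0.094. For Fgf5-/- minus WT, quantile normalization gave Lin28a 0.088 and Zbtb16 0.13, percentiles above background Lin28a 0.031 and the dimmer Lin28b probe 0.001, array medians Pou5f1 -0.008 and Sall4 -0.008, normexp Sall4 -0.094 and the mean of the Sall4 probes -0.004. For FGF5, array medians gave Sall4 0.054, and the 1-transcript probe was -0.009 with normexp, -0.005 in the authors' table and -0.003 with percentiles above background.

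With 1 array left out, signs changed in these ranges. For FGF5 they were Sall4 -0.15 to 0.12 (1-transcript probe -0.25 to 0.25), Nanos3 -0.44 to 0.17, Sall1 -1.32 to 0.29, Pax7 -1.06 to 0.53 and Lin28b -0.056 to 0.12 (dimmer probe -0.18 to 0.33). For genotype they were Nanos3 -0.30 to 0.13, Sall1 -0.15 to 0.007, Sall4 -0.032 to 0.11 (1-transcript probe -0.04 to 0.11), Lin28a -0.19 to 0.17, Lin28b -0.016 to 0.16 and Pou5f1 -0.08 to 0.20. Cultured minus sorted they were Lin28a -0.14 to 0.055 and Sall1 -0.15 to 0.66.

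Sample numbers were not established as pairs. Deviations of same-numbered samples correlated at 0.637 in culture, with 2 pairs only, and at -0.42 to -0.149 in sorted cells. With the replicate block 0 probes passed in either comparison, with smallest adjusted p of 0.196 and 0.885.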
